A study of Rattus norvegicus with 15 samples.

Results

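Messages of 9 genes of epithelial oxidant production and inflammatory defence were followed in the small intestine of Goto-Kakizaki (GK) rats after Roux-en-Y gastric bypass (RYGB). The genes were Duox2, Duox1, Nox1, Nox4, Nos2, Lcn2, Pigr, S100a8 and S100a9. The 9 genes were found by the gene name written beside each probe in the array files, which gave 11 of the 41012 noncontrol probes, since S100a8 has 3 probes and each other gene has 1. Each array measured the RNA of 1 male rat, with 5 rats in each of 3 groups. GK rats are an inbred, nonobese strain with spontaneous type 2 diabetes that was derived from Wistar rats. GK-S-30 rats were operated at 16 wk of age with a Roux limb (RL, the piece of small bowel joined directly to the stomach pouch) of 30 cm, and a 5 cm piece of the RL lying 5 cm from the anastomosis was taken 14 wk postoperation. GK-Sham-PF rats were GK rats of the same age that had an incision 16 cm from the ligament of Treitz, reconnected without rearrangement, and were pair-fed. Wistar rats were nondiabetic and had no operation. Both of these groups gave a 5 cm piece that began 21 cm and ended 26 cm past that ligament. Strain, diabetes, sham operation and pair-feeding therefore cannot be told apart where GK-Sham-PF is set against Wistar. Where GK-S-30 is set against Wistar, strain, diabetes and RYGB cannot be told apart. The 9 genes were singled out with values of these same arrays known, so their differences are given as descriptions, without a test.

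The dual oxidases DUOX1 and DUOX2 sit in the membrane of epithelial cells and release hydrogen peroxide towards the lumen, where it limits contact between bacteria and the mucosa. Each needs a partner protein, the maturation factor DUOXA1 or DUOXA2, to leave the endoplasmic reticulum. NOX1 and NOX4 are related NADPH oxidases, and NOS2 makes nitric oxide in inflamed tissue. Lipocalin 2 (Lcn2) withholds iron from bacteria by binding their siderophores. The polymeric immunoglobulin receptor (Pigr) carries IgA across the epithelium. S100A8 and S100A9 pair to form calprotectin, a metal-binding protein that is abundant in neutrophils and can also be made by stressed epithelium.

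Values are log2 normalized signals, the log2 of the processed intensity of a probe after quantile normalization of the 15 arrays. Signals of different probes are not comparable with each other, so levels are compared only between arrays for the same probe. A probe was taken into the fit when it was well above background on all arrays of at least 1 group, which 27892 probes were. Of the 11 probes of the 9 genes, 7 were (1 each for Duox2, Duox1, Nox1, Lcn2, Pigr, S100a8 and S100a9), and 4 were not. An array had 66.7% to 74.8% of its probes well above background. The 75th percentile of the processed signal lay between 302 and 357 on 13 arrays and at 207 and 208 on Wistar replicate 3 and GK-Sham-PF replicate 5. The arrays lay on 4 slides, and no slide held both Wistar and GK-S-30 arrays. A single slide held Wistar replicate 1 with GK-Sham-PF replicates 1 to 3, and another held GK-Sham-PF replicates 4 and 5 with GK-S-30 replicates 1 and 2.

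The labelled tissue was checked against marker genes. All 12 epithelial markers with a probe were well above background on all 15 arrays, and their summed normalized signal ran from 437930 to 553243 in Wistar rats, 444950 to 560611 in GK-Sham-PF rats and 513815 to 598560 in GK-S-30. All 8 smooth muscle markers were well above background on all arrays, and their summed signal was higher in GK-S-30, at 86982 to 113209 against 24943 to 52949 in GK-Sham-PF and 27157 to 47686 in Wistar. Of 11 smooth muscle probes, limma called 5 as higher after RYGB than in the GK-Sham-PF group, led by Actg2, a smooth muscle actin, at 2.35 (SE 0.25, adjusted p = 7.79e-05), Cnn1 at 2.23 (SE 0.29, adjusted p = 0.000461), Des at 1.99 (SE 0.20, adjusted p = 6.51e-05) and Tagln at 1.45 (SE 0.20, adjusted p = 0.000616). Over all probes 6.7% were called in that comparison (3.9% higher, 2.8% lower). With slide as a fixed block Des differed by 1.39 (adjusted p = 0.0191) and Tagln by 1.24 (adjusted p = 0.0726). Of 13 epithelial probes, 2 were higher (Krt18 and Krt19) and 0 lower, and of 4 testable probes of gastric genes 0 were higher and 1 (Muc6) was lower. The Krt18 and Krt19 calls were lost in 6 and 13 of the 15 fits that left out 1 array. With slide as a fixed block neither was called (adjusted p = 0.0723 and 0.0525). Another, brighter probe of Krt18 was not called. GK-S-30 replicate 1 had 8 of 9 gastric markers well above background, with a mean log2 signal of 5.04. All other arrays had 4 to 6, with means of 3.79 to 4.27. The summed gastric signal of GK-S-30 replicate 1, 1186, lay within the Wistar range of 937 to 1473. That sum rests mostly on Pgc, so it says little about the other gastric markers. In Wistar rats Pgc had a mean log2 signal of 9.93, and the next brightest gastric marker, Muc6, had 5.10. After RYGB the mean of Pgc was 9.74, and the next brightest, Tff2, had 5.68. The part of smooth muscle in the results below, and of any gastric tissue in GK-S-30 replicate 1, was not tested. In pieces of whole bowel, fewer cells of a type and less RNA per cell cannot be told apart.

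Duox2 gave the largest difference of GK-S-30 from both other groups among the 9 genes. Its probe lies on chromosome 3 (rn4, bases 109059633 to 109059692) and starts at position 5329 of its RefSeq transcript. In Wistar rats replicates 1 to 5 read 5.29, 5.71, 5.60, 5.45 and 4.88. In GK-Sham-PF rats they read 7.71, 7.50, 8.39, 10.41 and 7.14, and in GK-S-30 rats 14.83, 15.61, 14.17, 13.71 and 14.19. All 15 arrays were well above background and no groups overlapped. The order was Wistar, GK-Sham-PF, GK-S-30, with a gap of 1.43 between the highest Wistar and the lowest GK-Sham-PF array and of 3.30 between the highest GK-Sham-PF and the lowest GK-S-30 array. GK-Sham-PF replicate 4 lay above the 4 other arrays of its group, and that rat also had the highest smooth muscle signal of its group (52949).

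The mean of Duox2 was 14.50 ± 0.74 (SD, n = 5) in GK-S-30, 8.23 ± 1.30 (SD, n = 5) in GK-Sham-PF and 5.39 ± 0.32 (SD, n = 5) in Wistar. GK-S-30 exceeded GK-Sham-PF by 6.27 on the log2 scale (SE 0.50), which is 77.2-fold, and the difference was 6.44 on the slide that held 2 arrays of each of these groups. GK-Sham-PF exceeded Wistar by 2.84 (SE 0.50), which is 7.18-fold, with 2.58 on the slide they shared. GK-S-30 exceeded Wistar by 9.11 (SE 0.50), or 554-fold. Among the 27892 probes these differences ranked 2, 48 and 3 from the highest, in that order. With normexp background correction, which lifts dim signals by an offset of 50, the difference of GK-Sham-PF from Wistar was 1.70 and that of GK-S-30 from Wistar 7.49. In raw processed signal the Duox2 probe went from 30.9 to 50.6 in Wistar rats, 96.5 to 1366 in GK-Sham-PF rats and 13850 to 51595 in GK-S-30, and no spot was saturated.

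**Figure D1:**
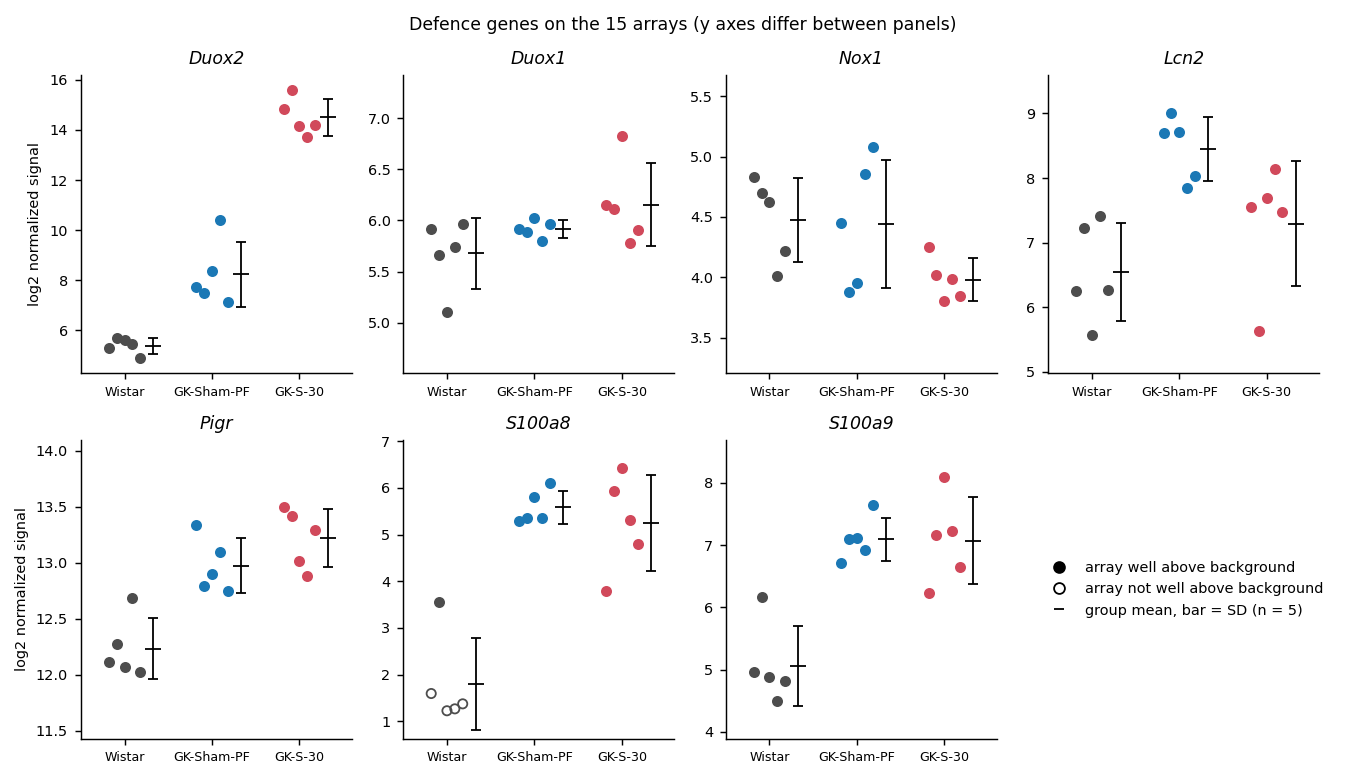
Log2 normalized signal (y axis, scale differs between panels) of the 7 probes taken into the fit, 1 point per array, by group (x axis). Open points were not well above background, and the bar beside each group is the mean with its SD (n = 5). The groups do not overlap for Duox2, from Wistar at 4.88 to 5.71 through GK-Sham-PF at 7.14 to 10.41 to GK-S-30 at 13.71 to 15.61. S100a8 was well above background on only 1 Wistar array.

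The promoter of Duox2 is shown because its arrays separated all 3 groups. The 250 bases upstream of its start, from the RefSeq table of promoters, lie on the minus strand of the later assembly GRCr8 at chr3:129698754-129699003. Capitals mark the motif matches described after it.

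Duox2 promoter: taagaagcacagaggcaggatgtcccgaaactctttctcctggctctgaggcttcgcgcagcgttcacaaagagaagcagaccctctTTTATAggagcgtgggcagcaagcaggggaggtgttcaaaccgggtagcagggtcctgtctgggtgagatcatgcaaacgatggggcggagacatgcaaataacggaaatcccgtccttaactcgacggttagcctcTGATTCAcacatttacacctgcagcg

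Motifs were looked for on both strands, a TATA box (TATAAA), a STAT-type site (TTCNNNGAA), an NF-kB-type site (GGGA, 4 bases of any kind, then CC) and an AP-1-type site (TGANTCA). The Duox2 window held TATAAA on the opposite strand, between 163 and 158 bases before the start, and the AP-1-type letters on its own strand, between 26 and 20 bases before the start, and these matches do not overlap. Of all 33469 promoters in the table, 12.9% held TATAAA in the same 250 bases, 6.34% the AP-1-type letters, 16.4% the NF-kB-type letters and 7.67% the STAT-type letters. The windows of Lcn2 and Pigr held the NF-kB-type letters, as did that of Nox1, and S100a9 held TATAAA. Those of Duox1 and Nox4 held none of these, while Nos2 and S100a8 were not matched in the table. A match of letters describes the sequence only.

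Duox1, the neighbour and relative of Duox2, read between 5.10 and 6.83 on all 15 arrays. Its 5 arrays were at 5.92, 5.66, 5.10, 5.74 and 5.97 in Wistar, 5.91, 5.89, 6.02, 5.80 and 5.96 in GK-Sham-PF and 6.15, 6.12, 6.83, 5.78 and 5.90 in GK-S-30. All 3 groups overlapped. The difference of GK-S-30 from GK-Sham-PF was 0.24 (SE 0.19, 95% interval -0.16 to 0.63). GK-Sham-PF differed from Wistar by 0.24 (SE 0.19, 95% interval -0.16 to 0.64). GK-S-30 differed from Wistar by 0.48 (SE 0.19, 95% interval 0.08 to 0.87). GK-S-30 replicate 3 gave the highest Duox1 value, whereas GK-S-30 replicate 2 gave the highest Duox2 value.

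Nox1, the oxidase of colon epithelium, was dim. Wistar arrays read 4.83, 4.70, 4.63, 4.01 and 4.22, GK-Sham-PF arrays 4.45, 3.88, 3.96, 4.86 and 5.08, and GK-S-30 arrays 4.25, 4.02, 3.80, 3.99 and 3.85. The groups overlapped, although GK-S-30 values kept to the lower end of both other groups. GK-S-30 lay below GK-Sham-PF by a log2 difference of -0.46 (SE 0.22, 95% interval -0.94 to 0.01), and by -0.83 on their shared slide. GK-Sham-PF differed from Wistar by -0.03 (SE 0.22, 95% interval -0.51 to 0.44). On the slide they shared the difference was -0.74, and the single Wistar array there was the highest of its group. GK-S-30 differed from Wistar by -0.49 (SE 0.22, 95% interval -0.97 to -0.02). This difference was -1.57 with slide as a fixed block and -0.13 with normexp background correction, which gave -0.14 against GK-Sham-PF.

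Nox4, the oxidase best known from kidney and vessel wall, was not well above background on any of the 15 arrays. The probe of Nos2, which has 10 spots on each array, was well above background on 1 array. That was GK-S-30 replicate 3, at 4.33, while the other 14 arrays lay between 1.30 and 1.81. The same array gave the highest Duox1, S100a8 and S100a9 values of its group.

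Partners of the oxidases were taken from a list of 12 genes, 11 of which had a probe and 9 of which (10 probes) could be tested with limma over all 27892 probes. Duoxa2, the partner of DUOX2, is not analysed here. Noxa1, the activator of NOX1, was the only partner called in GK-S-30 rats against the GK-Sham-PF group, where 6.7% of all probes were called (3.9% higher, 2.8% lower). Noxa1 read 7.04, 7.08, 7.23, 6.85 and 7.18 in GK-Sham-PF and 8.34, 8.11, 7.56, 7.48 and 7.82 in GK-S-30. It rose by 0.79 (SE 0.16, adjusted p = 0.00796), with no overlap, and by 0.69 against Wistar (SE 0.16, adjusted p = 0.00568).

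Duoxa1, which folds and delivers DUOX1, differed by 0.14 (SE 0.20, adjusted p = 0.78) between GK-S-30 rats and GK-Sham-PF rats and by -0.20 (SE 0.20, adjusted p = 0.691) between GK-Sham-PF and Wistar. Cyba, the membrane subunit shared by NOX1 and NOX4, differed by -0.18 (SE 0.11, adjusted p = 0.401) between GK-S-30 rats and GK-Sham-PF rats. Noxo1, the organizer of NOX1, differed by -0.16 (SE 0.27, adjusted p = 0.812). In GK-Sham-PF against Wistar, where 7.83% of all probes were called (3.61% higher, 4.22% lower), limma called none of the 10 partner probes, and none had an unadjusted p under 0.05 or a Tukey p under 0.05. In GK-S-30 against Wistar, where 22.8% of all probes were called (10.9% higher, 11.8% lower), Noxa1 was higher and Ncf4, a cytosolic subunit of the phagocyte oxidase, was lower.

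The Duox genes lie in a cluster, so the probes mapped within 100 kb of the Duox2 probe were examined. This set was chosen after the values were seen. Positions are those written in the array files and were not checked against a genome, which touches above all the probe named Tk1 there, a gene usually placed elsewhere. Sord, which encodes sorbitol dehydrogenase and has its probe 12.1 kb from that of Duox2, had group means of 6.16 in Wistar rats, 6.68 in GK-Sham-PF rats and 9.07 in GK-S-30. It rose in GK-S-30 rats against the GK-Sham-PF group by 2.39 (SE 0.28, adjusted p = 0.000191), with no overlap. Against Wistar it rose by 2.90 (SE 0.28, adjusted p = 3.21e-06), although with slide as a fixed block the difference was 2.78 with an adjusted p of 0.0855. Between GK-Sham-PF and Wistar it differed by 0.51 (SE 0.28, adjusted p = 0.359) and was not called, although all GK-Sham-PF arrays lay above all Wistar arrays. On the other side, Duoxa1 at 23.0 kb and Shf at 70.0 kb were not called in GK-S-30 rats against the GK-Sham-PF group (adjusted p = 0.133 for Shf). Trim69, at 95.9 kb on the side of Sord, differed by 0.07 (adjusted p = 0.821).

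**Figure D2:**
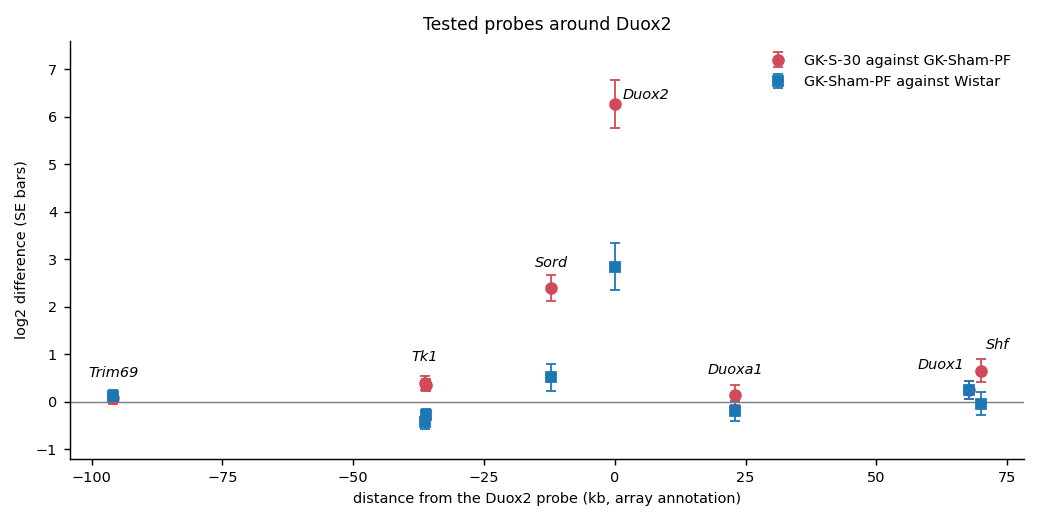
Log2 difference (y axis, bars are SE) of the probes taken into the fit within 100 kb of the Duox2 probe, against distance from it in kb (x axis), for GK-S-30 rats against the GK-Sham-PF group (circles) and GK-Sham-PF against Wistar (squares). Duox2 stands at 6.27 and Sord at 2.39 in the first comparison, and Duoxa1 and Duox1 lie near 0 at 0.14 and 0.24.

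Lcn2 was high in GK-Sham-PF. Wistar arrays read 6.26, 7.22, 5.58, 7.41 and 6.26, GK-Sham-PF arrays 8.69, 9.0, 8.71, 7.84 and 8.03, and GK-S-30 arrays 7.55, 5.63, 7.68, 8.14 and 7.47. All GK-Sham-PF arrays lay above all Wistar arrays, by a mean difference of 1.91 (SE 0.43, 3.75-fold), and by 2.54 on the shared slide. Over all alternative settings this difference ran from 1.16 to 2.54. GK-S-30 lay between and overlapped both groups.

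Its mean was lower than that of GK-Sham-PF by a log2 difference of -1.16 (SE 0.43, 95% interval -2.09 to -0.23), and by -1.35 on the shared slide. It was above Wistar by 0.75 (SE 0.43, 95% interval -0.18 to 1.67). Single rats set both overlaps. Without GK-S-30 replicate 4, all GK-S-30 arrays lay below all GK-Sham-PF arrays, and without GK-S-30 replicate 2 they all lay above Wistar. Duox2 and Lcn2 thus took different orders, since Lcn2 was highest in GK-Sham-PF and Duox2 in GK-S-30.

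Proteins that bind lipocalin 2 or calprotectin formed a list of 5 genes, of which 4 could be tested. Limma called none of them in GK-S-30 rats against the GK-Sham-PF group, where 3 had an unadjusted p under 0.05 and 0 a Tukey p under 0.05. It also called none in GK-Sham-PF against Wistar, with 1 and 0. In GK-S-30 against Wistar, Mmp9, the matrix protease that forms a complex with lipocalin 2, was higher by 1.00 (SE 0.22, adjusted p = 0.00435), and by 2.28 (adjusted p = 0.0211) with slide as a fixed block. The lipocalin receptor Slc22a17 was lower by a log2 difference of -0.41 (SE 0.12, adjusted p = 0.0228), a call lost without GK-S-30 replicate 1 or 5.

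Pigr was bright, above 94.5% to 97.4% of the probes of its own array. Wistar arrays read 12.11, 12.27, 12.07, 12.68 and 12.03, GK-Sham-PF arrays 13.33, 12.79, 12.90, 13.10 and 12.74, and GK-S-30 arrays 13.50, 13.42, 13.01, 12.88 and 13.29. All 10 GK arrays lay above all 5 Wistar arrays, with a gap of 0.06 for GK-Sham-PF and 0.20 for GK-S-30. The difference from Wistar was 0.74 (SE 0.16, 1.67-fold) in GK-Sham-PF, and 0.90 on the shared slide, and 0.99 (SE 0.16, 1.98-fold) in GK-S-30. GK-S-30 and GK-Sham-PF overlapped and differed by 0.25 (SE 0.16, 95% interval -0.09 to 0.59), with 0.54 on their shared slide.

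The IgA network, a list of 14 genes of which 11 could be tested (12 probes), had 4 probes higher and 0 lower in GK-S-30 rats against the GK-Sham-PF group. They were Tnfsf13, Ccr10, Tnfrsf17 and Mzb1, in a comparison where 3.9% of all probes were called higher and 2.8% lower. The Mzb1 call (0.60, adjusted p = 0.0421) was lost without a filter on dim probes (adjusted p = 0.0683) and in 11 of the 15 fits that left out 1 array, where the adjusted p ran up to 0.104, and held only without Wistar replicate 2 or 3, GK-Sham-PF replicate 4 or GK-S-30 replicate 4. Tnfsf13, a growth factor of plasma cells (APRIL), rose by 1.07 (SE 0.19, adjusted p = 0.00316). It had fallen in GK-Sham-PF against Wistar by a log2 difference of -1.05 (SE 0.19, adjusted p = 0.00177), and its means were 11.18 in Wistar rats, 10.13 in GK-Sham-PF rats and 11.20 in GK-S-30. With slide as a fixed block these differences were 1.21 and -0.96 and neither was called (adjusted p = 0.0589 and 0.284). Against Wistar, GK-Sham-PF had 2 probes of the list higher and 1 lower, beside 3.61% and 4.22% of all probes.

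Against Wistar, GK-S-30 had 5 probes of this list higher and 0 lower, beside 10.9% and 11.8% of all probes. Mzb1, a chaperone of antibody-making cells, rose by 1.17 (SE 0.17, adjusted p = 0.000141) and the B cell receptor chain Cd79b by 1.30 (SE 0.27, adjusted p = 0.00294), for which slide as a fixed block gave 2.01 (adjusted p = 0.189). The median of the 12 probes was 0.29 in GK-S-30 rats against the GK-Sham-PF group, 0.14 in GK-Sham-PF against Wistar and 0.46 in GK-S-30 against Wistar, beside -0.03, -0.0012 and -0.03 over all probes tested.

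S100a8 and S100a9 were each measured by a RefSeq-matched probe, shown because their readings moved together so closely. On rn4 the S100a8 probe lies at chr2:182962328-182962387 and the S100a9 probe at chr2:182987647-182987706, and the file lists them in opposite orders. Capitals mark the longest run of bases that both probes share, which is 9 of 60.

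S100a8 probe: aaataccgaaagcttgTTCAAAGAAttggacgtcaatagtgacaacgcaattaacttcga
S100a9 probe: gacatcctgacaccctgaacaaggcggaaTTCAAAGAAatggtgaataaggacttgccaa

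S100a8 was near background in Wistar rats, where only replicate 2 was well above it. Wistar arrays read 1.59, 3.55, 1.23, 1.27 and 1.37, GK-Sham-PF arrays 5.29, 5.35, 5.81, 5.36 and 6.11, and GK-S-30 arrays 3.79, 5.93, 6.43, 5.30 and 4.80. All 10 GK arrays were well above background and above all Wistar arrays. The difference from Wistar was 3.78 (SE 0.48) in GK-Sham-PF, with 3.89 on the shared slide, and 3.45 (SE 0.48) in GK-S-30. These sizes depend on how the 4 Wistar arrays that were not well above background are treated, since with normexp background correction they were 0.64 and 0.58, and GK-S-30 then overlapped Wistar. GK-S-30 and GK-Sham-PF overlapped and differed by -0.33 (SE 0.48, 95% interval -1.36 to 0.69). The 2 other S100a8 probes match an expressed sequence tag, are listed in the order opposite to the first, and were not well above background on any array.

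S100a9 was well above background on all 15 arrays. Wistar arrays read 4.97, 6.16, 4.88, 4.49 and 4.81, GK-Sham-PF arrays 6.71, 7.09, 7.11, 6.92 and 7.64, and GK-S-30 arrays 6.23, 7.16, 8.09, 7.22 and 6.64. All GK arrays lay above all Wistar arrays, although GK-S-30 replicate 1 exceeded Wistar replicate 2 by only 0.07. The difference from Wistar was 2.03 (SE 0.33, 4.09-fold) in GK-Sham-PF, with 2.01 on the shared slide, and 2.01 (SE 0.33, 4.02-fold) in GK-S-30. With normexp background correction these were 0.84 and 0.86. GK-S-30 and GK-Sham-PF overlapped and differed by -0.02 (SE 0.33, 95% interval -0.74 to 0.69).

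The same rats were high and low for both calprotectin genes. Wistar replicate 2 was the highest of its group for both, GK-Sham-PF replicate 5 (a dim array) of its group, GK-S-30 replicate 3 of its group, and GK-S-30 replicate 1 was the lowest of its group for both. Over the 15 arrays their Pearson r was 0.984, and it was 0.943 for deviations from the group means. The 15 points share arrays and normalization, and the values describe these rats without a test.

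Neutrophil markers were examined because calprotectin is abundant in these cells. Between 4 and 7 of 11 markers with a probe were well above background on an array, and their summed signal ran from 166 to 540 in Wistar rats, 205 to 323 in GK-Sham-PF rats and 200 to 322 in GK-S-30. Mmp8 and Fpr1 were not well above background on any array. Camp was well above it on 3 GK-S-30 arrays and on none of the Wistar and GK-Sham-PF arrays. Csf3r and Elane were each well above it on 1 Wistar array, 2 GK-Sham-PF arrays and none of the GK-S-30 arrays. Limma called none of the 4 markers that could be tested in any comparison, and in GK-Sham-PF against Wistar 1 had an unadjusted p under 0.05 and 0 a Tukey p under 0.05. In both other comparisons these counts were 0 and 0.

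Of 8 monocyte and macrophage markers (10 probes), limma called 1 higher and 2 lower in GK-Sham-PF against Wistar and 1 higher and 4 lower in GK-S-30 against Wistar. Of all probes 7.83% were called in the first of these comparisons and 22.8% in the second. Itgam, an integrin chain of monocytes and neutrophils, fell against Wistar by 2.08 (SE 0.21, adjusted p = 6.22e-06) in GK-Sham-PF and by 1.75 (SE 0.21, adjusted p = 2.62e-05) in GK-S-30. With slide as a fixed block these were -2.02 (adjusted p = 0.0214) and -1.34, the latter not called (adjusted p = 0.262). In GK-Sham-PF against Wistar the other calls were Adgre1, higher by 0.62 (adjusted p = 0.00501), and Mrc1, at -0.58 (adjusted p = 0.0133). Neither was called with the slide block. None was called in GK-S-30 rats against the GK-Sham-PF group, where 2 had an unadjusted p under 0.05 and 1 a Tukey p under 0.05. The part of these cells in the calprotectin values was not tested.

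**Figure D3:**
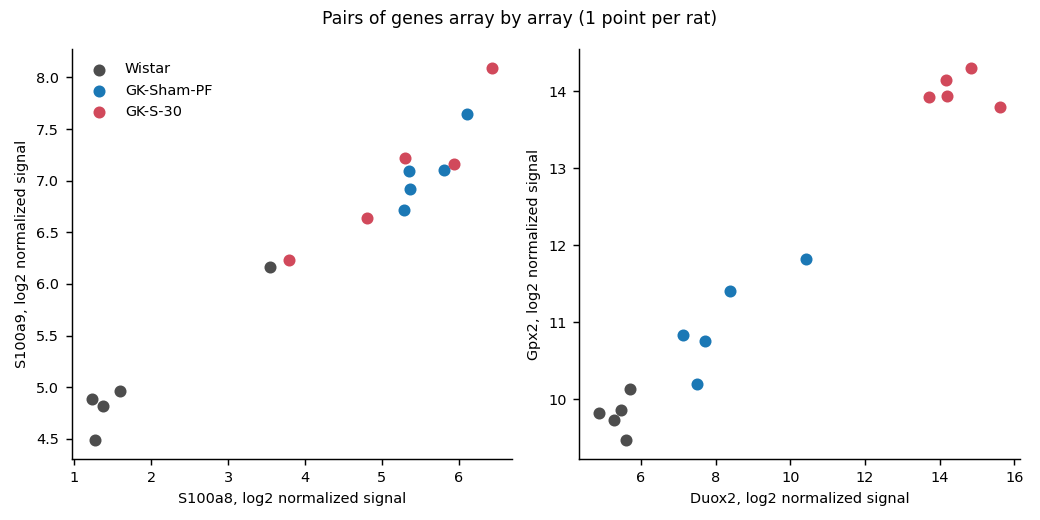
Log2 normalized signals of S100a8 (x axis) against S100a9 (y axis), left, and of Duox2 (x axis) against Gpx2 (y axis), right, with 1 point per rat coloured by group. The calprotectin genes track each other within as well as between groups (r = 0.984 over all arrays and 0.943 within groups), while Duox2 and Gpx2 fall into 3 separate groups (r = 0.984 over all arrays and 0.62 within groups).

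Set side by side, the 7 genes taken into the fit divided by comparison. In GK-S-30 rats against the GK-Sham-PF group, 1 of 7 (Duox2) was higher without overlap and 0 were lower, where 4.23% of all probes were higher and 3.48% lower without overlap (7.71% together). In GK-Sham-PF against Wistar, 5 of 7 (Duox2, Lcn2, Pigr, S100a8 and S100a9) were higher without overlap and 0 were lower, beside 4.14% of all probes higher and 4.68% lower (8.82% together). In GK-S-30 against Wistar, 4 of 7 (Duox2, Pigr, S100a8 and S100a9) were higher without overlap, beside 8.72% of all probes higher and 9.24% lower (18% together). S100a8 entered the fit only through the GK groups, where it was high, since just 1 Wistar array was well above background. Of the 6 genes well above background on every array, 1, 4 and 3 did not overlap in these comparisons. The genes were chosen from these comparisons and nothing is read from these counts or shares. The comparisons share groups, so they are not independent of each other. On the single slides that hold 2 groups, which leave at most 3 arrays a group, 5 of 7 did not overlap between GK-S-30 rats and GK-Sham-PF rats (Duox2, Duox1 and Pigr higher, Lcn2 and Nox1 lower) and 6 of 7 between GK-Sham-PF and the 1 Wistar array. With so few arrays 37.7% of all probes did not overlap in the first case (17.4% higher, 20.4% lower) and 63% in the second (32.1% higher, 30.9% lower), so these counts show little.

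**Figure D4:**
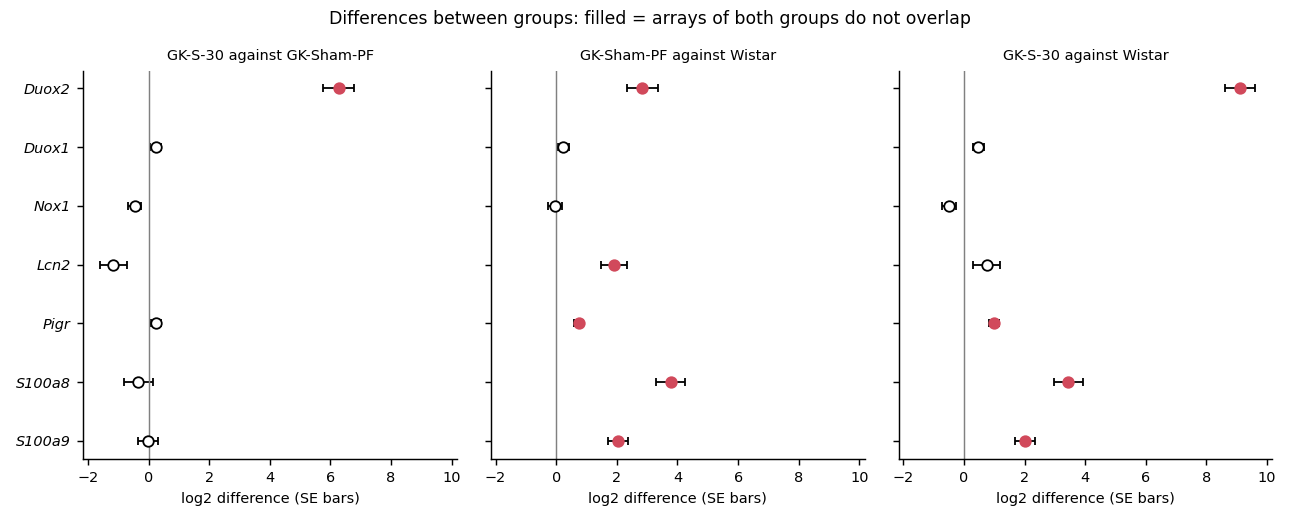
Log2 difference with its SE (x axis) of the 7 genes (y axis) in the 3 comparisons. Filled points are genes whose arrays did not overlap between the groups, 1 of 7 in GK-S-30 rats against the GK-Sham-PF group, 5 of 7 in GK-Sham-PF against Wistar and 4 of 7 in GK-S-30 against Wistar.

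Genes of the surrounding pathways were then tested, in 8 lists of 112 genes, of which 87 genes (107 probes) could be tested. Limma called 19 of the 107 probes in GK-S-30 rats against the GK-Sham-PF group (11 higher, 8 lower), 14 in GK-Sham-PF against Wistar (10 higher, 4 lower) and 33 in GK-S-30 against Wistar (19 higher, 14 lower). These were 17.8%, 13.1% and 30.8% of the 107 probes, beside 6.7%, 7.83% and 22.8% of all probes. The lists were chosen with earlier results of these data known, and nothing is read from these shares. The median difference of the 107 probes was -0.0063, 0.11 and -0.013, in that order. The count for GK-S-30 rats against the GK-Sham-PF group was 9, 9 and 11 without GK-Sham-PF replicates 1, 2 and 4, and 12, 8 and 9 without GK-S-30 replicates 1, 2 and 5. The count for GK-Sham-PF against Wistar was 9 without Wistar replicate 1 and 8 without Wistar replicate 4. With slide as a fixed block, which rests on the few arrays that share a slide, limma called 3, 0 and 2 probes, with 25, 15 and 23 at an unadjusted p under 0.05. They were those of Gpx2, Gch1 and Noxa1 in the first comparison and of Gpx2 and Mmp9 in the last, so every other call in these lists was lost with that block. In GK-S-30 rats against the GK-Sham-PF group, the calls of Ccr10, Tnfrsf17, Prdx5, Slpi, Cebpd and Il17re were each lost in 6 to 11 of the 15 fits that left out 1 array, with adjusted p up to 0.103.

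Gpx2, the glutathione peroxidase of intestinal epithelium, read 9.73, 10.13, 9.47, 9.86 and 9.83 in Wistar, 10.75, 10.20, 11.40, 11.82 and 10.83 in GK-Sham-PF and 14.30, 13.80, 14.15, 13.93 and 13.94 in GK-S-30. No groups overlapped. It rose by 3.03 (SE 0.24, adjusted p = 5.73e-06) in GK-S-30 rats against the GK-Sham-PF group, by 1.20 (SE 0.24, adjusted p = 0.00397) in GK-Sham-PF against Wistar and by 4.22 (SE 0.24, adjusted p = 6.37e-09) in GK-S-30 against Wistar. The other Gpx2 probe, matched to an expressed sequence tag, rose by 1.13 (SE 0.24, adjusted p = 0.0112), 0.83 (SE 0.24, adjusted p = 0.0465) and 1.96 (SE 0.24, adjusted p = 3.32e-05), so the probes differ in size and not in direction. With slide as a fixed block the first probe differed by 1.05 between GK-Sham-PF and Wistar and was not called (adjusted p = 0.47). For the other probe the call in that comparison was lost in 13 of the 15 fits that left out 1 array, and with the block its difference of GK-S-30 from Wistar was 1.36 (adjusted p = 0.179).

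The list of peroxidases and peroxide removal held 15 genes and 15 testable probes. It had 2 probes higher, both of Gpx2, and 2 lower, of Gpx3 and Prdx5, in GK-S-30 rats against the GK-Sham-PF group. Relative to Wistar, GK-Sham-PF had 4 higher and 1, the mitochondrial superoxide dismutase Sod2, lower. In GK-S-30 against Wistar 4 were higher and 5 lower, among the lower the hydrogen peroxide-splitting enzyme catalase (Cat) at -0.49 (SE 0.11, adjusted p = 0.00448). Lpo, the peroxidase of milk and airway secretions, was well above background on 1 array.

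Of 16 inducible epithelial defence genes, 14 genes (16 probes) could be tested. In GK-S-30 rats against the GK-Sham-PF group 1 probe was higher and 3 were lower, the lower ones of Slpi (2 probes) and Cxcl1. Reg3g, a secreted lectin against Gram-positive bacteria, read 9.25, 10.16, 11.49, 10.92 and 10.77 in Wistar, 10.08, 11.21, 14.93, 11.10 and 16.55 in GK-Sham-PF and 16.16, 16.27, 16.88, 16.60 and 16.78 in GK-S-30. GK-Sham-PF had 3 arrays within the Wistar range and 2, replicates 3 and 5, well above it, of which replicate 5 lay within the GK-S-30 range. Reg3g rose by 3.76 (SE 0.96, adjusted p = 0.0286) against GK-Sham-PF and by 6.02 (SE 0.96, adjusted p = 0.000347) against Wistar. The first call was lost without GK-Sham-PF replicate 1, 2 or 4 or without GK-S-30 replicate 1, 3 or 5, where the adjusted p ran up to 0.0747, and without a filter on dim probes (adjusted p = 0.055). With slide as a fixed block the differences were 2.39 (adjusted p = 0.484) and 5.21 (adjusted p = 0.334).

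Reg3b, a related lectin, was high on the same 2 arrays, with 17.38 and 17.96 in GK-Sham-PF replicates 3 and 5 and 12.49, 14.05 and 13.50 in replicates 1, 2 and 4. It rose by 4.73 (SE 0.85, adjusted p = 0.000925) in GK-S-30 against Wistar. The GK-Sham-PF rat with the highest Duox2 was another, replicate 4. Cxcl1, a chemokine that draws neutrophils, fell in GK-S-30 rats against the GK-Sham-PF group by 2.35 (SE 0.67, adjusted p = 0.0485). That call was lost without Wistar replicate 1 or 5, GK-Sham-PF replicate 2, 3 or 4, or GK-S-30 replicate 1, 2, 4 or 5, where the adjusted p ran up to 0.117.

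Ccl28, which attracts IgA-secreting cells, fell against Wistar by 1.42 (SE 0.18, adjusted p = 7.54e-05) in GK-Sham-PF, with a difference of -1.29 on the shared slide, and by 1.12 (SE 0.18, adjusted p = 0.000385) in GK-S-30. Ccl20, which attracts dendritic cells and lymphocytes to the epithelium, fell by 1.53 (SE 0.33, adjusted p = 0.00354) in GK-S-30 against Wistar, where GK-S-30 replicate 3 at 10.06 lay just below the lowest Wistar array at 10.07. Slide as a fixed block gave -2.22 (adjusted p = 0.18). In that comparison 2 of the 16 probes were higher and 3 were lower. Relative to Wistar, GK-Sham-PF had 2 higher, both of Slpi, and 1 lower.

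For nitric oxide and arginine, a list of 11 genes with 9 testable (11 probes), 1 probe was higher in GK-S-30 rats against the GK-Sham-PF group, that of Gch1. This gene encodes the first enzyme in making tetrahydrobiopterin, a cofactor of nitric oxide synthases. It rose by 1.03 (SE 0.15, adjusted p = 0.000184) against Wistar and by 0.83 (SE 0.15, adjusted p = 0.00449) against GK-Sham-PF. In GK-S-30 against Wistar 3 probes were higher and 1, the arginase Arg2, was lower. Relative to Wistar, GK-Sham-PF had 0 higher and 1, again Arg2, lower.

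Microbial sensors and transcription factors had 25 testable probes of 17 genes. Tlr4, the receptor of bacterial endotoxin, rose by 1.22 (SE 0.21, adjusted p = 0.000632) in GK-S-30 against Wistar, with means of 5.28 in Wistar rats, 6.18 in GK-Sham-PF rats and 6.51 in GK-S-30. With slide as a fixed block that difference was 0.58 and was not called (adjusted p = 0.593). In that comparison 2 probes were higher and 0 lower, and the same counts held in GK-Sham-PF against Wistar. In GK-S-30 rats against the GK-Sham-PF group the probe of the Tlr4 partner Ly96 was higher and that of the transcription factor Cebpd was lower.

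Cytokines and their receptors had 14 testable probes of 11 genes, and Tnf and Il17a were not well above background on any array. In GK-S-30 rats against the GK-Sham-PF group 1 probe, of the IL-17C receptor chain Il17re, was higher. In GK-Sham-PF against Wistar limma called none, with 3 at an unadjusted p under 0.05 and 2 at a Tukey p under 0.05. In GK-S-30 against Wistar 1 was higher and 3 were lower, of Il1b (2 probes) and Il22ra2.

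Probes whose pattern over the 15 arrays was most like that of each of the 7 genes were drawn from 15824 named probes and are given as a description. The arrays share normalization and fall into 3 groups, so the r of deviations from the group means is given beside each. For Duox2 the 5 most alike were Gpx2 (r = 0.984, within groups 0.62), Pkia (0.975, within groups 0.68), Nppa (0.974, within groups 0.57), Rab15 (0.968, within groups 0.64) and Bag2 (0.961, within groups 0.43). Gpx2 is described above. Pkia encodes an inhibitor of protein kinase A, and its means were 5.01 in Wistar rats, 5.74 in GK-Sham-PF rats and 6.91 in GK-S-30.

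Duox1 was most like Pou2af1 (r = 0.901, within groups 0.92), a B cell coactivator, and Ccdc106 (0.855, within groups 0.87). Nox1 was most like Rbp3 (0.923, within groups 0.93) and Adprhl1 (0.923, within groups 0.89). Lcn2 was most like Mmgt2 (0.894, within groups 0.83) and Nsmce1 (0.884, within groups 0.85).

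Pigr was most like Cenpm (0.932, within groups 0.76) and Bin1 (0.927, within groups 0.72). S100a8 and S100a9 shared their closest probe apart from each other, that of the interferon-induced gene Ifit1 (0.968 and 0.946, within groups 0.82 and 0.85), which had means of 1.45 in Wistar rats, 7.36 in GK-Sham-PF rats and 6.52 in GK-S-30. The next were Or9s14 for S100a8 (0.948, within groups 0.73) and Gzmc, a granzyme, for S100a9 (0.924, within groups 0.66).

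Among the 21 pairs of the 7 genes, only S100a8 with S100a9 had an r within groups above 0.5, and Pigr with S100a9 had -0.50. The pair of Duox2 and Pigr had 0.798 over all arrays and 0.44 within groups, Duox2 and Lcn2 had 0.075 and -0.46, and Duox2 and Duox1 had 0.525 and -0.14. Duox2 with S100a8 had -0.0103 within groups and with S100a9 -0.14.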

How the data were processed

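Total RNA of intestinal segments was labelled with a single dye and read on whole-genome rat arrays of Agilent. The authors deposited intensity values for every spot as Feature Extraction (10.7.3.1 in the headers) gave them, corrected for background within the array. A deposited matrix of log2 values, quantile-normalized per their methods, served as an alternative and correlated at 1.00 with the values used here on every array. Groups came from the sample labels.

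Control spots and spots flagged as outliers were dropped, and repeated spots of a probe averaged. The log2 intensities were then put through quantile normalization (limma 3.58.1, R 4.3.3). Group means were fitted to all 15 arrays (lmFit, contrasts.fit, eBayes) with Benjamini-Hochberg adjustment over 27892 probes and a call at an adjusted p under 0.05. The standard errors come from this moderated fit, and the number of arrays limits the precision. The Tukey comparison of the methods, unadjusted over probes, was an alternative. Fits were tried on simulated arrays with independent noise and no slide effect, which cannot show how slides bear on the calls. Symbols came from RefSeq accessions (17541 of 41012 probes) or else the files. Promoters are RefSeq's on GRCr8, and probe positions the files' on rn4.

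The genes and lists were chosen with earlier results of these data known. In each list and comparison, genes were named when called with a log2 change of at least 1, at most the 4 largest, with Duoxa1, Cyba, Noxo1 and Noxa1 always. Probes like each gene were the 5 of highest r for Duox2 and the 2 of highest r for each other gene. Any other gene was named after its values were seen. The labels number the replicates without naming animals, so 1 rat per array rests on the methods, which give 5 samples in each group. The p-values set a mean difference against the spread between these samples. Of the list of microbial sensors and transcription factors, part of the calls after RYGB is not reported here.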

Additional observations from a re-analysis of the deposited data

Results flagged for a closer look

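Among 96 sets of 5 arrays of 1 group, 13 held an array that stood apart from the other 4 by Dixon's ratio (over 0.71), which chance gives in about 1 set in 20. All values are log2 normalized signals. Nos2 in GK-S-30 replicate 3 was 4.33, and the other 4 arrays lay from 1.30 to 1.61. S100a8 in Wistar replicate 2 was 3.55 against 1.23 to 1.59, and S100a9 on the same array was 6.16 against 4.49 to 4.97. An S100a8 probe matched to an expressed sequence tag was 1.85 in Wistar replicate 1 against 1.13 to 1.16, and 2.50 in GK-S-30 replicate 3 against 1.13 to 1.52, neither well above background. Lcn2 in GK-S-30 replicate 2 was 5.63 against 7.47 to 8.14.

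Among the surrounding genes, Tnfsf13 in Wistar replicate 4 was 11.70 with the nearest other array at 11.09, Cd79b in GK-Sham-PF replicate 1 was 8.99 against 7.26 to 7.35, and Noxa1 in Wistar replicate 3 was 6.82 against 7.22 to 7.33. Sord in Wistar replicate 2 was 5.85 against 6.22 to 6.29. Itgam in GK-Sham-PF replicate 5 was 4.08 against 4.96 to 5.25. The smooth muscle genes Actg2 in GK-Sham-PF replicate 4 and Tagln in GK-S-30 replicate 1 were 14.09 against 12.67 to 13.07 and 13.58 against 13.85 to 13.95.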

How the results depend on the processing

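Counts of the 7 genes without overlap stood at 1, 5 and 4 for GK-S-30 against the GK-Sham-PF group, GK-Sham-PF against Wistar and GK-S-30 against Wistar. With normexp background correction they were 1, 5 and 3. Of the 6 genes well above background on every array, which leave out S100a8, they were 1, 4 and 3. Within the slide that GK-S-30 and GK-Sham-PF shared, where only 2 arrays of each remain, the first count was 5, beside 37.7% of all probes without overlap there. Leaving out 1 array at a time gave 1 to 2, 5 to 5 and 4 to 5. Counts of called probes in the surrounding lists (19, 14 and 33) ranged from 8 to 23, 8 to 15 and 27 to 37 when 1 array was left out. Without a filter on dim probes the first was 12. Slide as a fixed block gave 3, 0 and 2, and the Tukey comparison of the methods 29, 24 and 38. Same-numbered deviations from the group means correlated between -0.28 and 0.19, which cannot show whether rats of the same number were handled together. The replicate block gave 9, 9 and 26. Without both dim arrays, an alternative chosen after seeing the data, the counts were 19, 16 and 40. Of the recomputed differences of the 7 genes, 470 moved by less than 1 SD between replicates and 10 by more, and 12 changed sign, each between groups that overlapped. These were S100a9 and S100a8 in GK-S-30 against the GK-Sham-PF group, which ran from -0.58 to 0.18 and from -0.87 to 0.03, and Nox1 in GK-Sham-PF against Wistar, from -0.74 to 0.11. The causes were not tested. Probes near background, such as S100a8 in Wistar rats, limit the size of a fold.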
